A study of Mus musculus with 9 samples.

Results

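The livers of mice fed a high-iron diet were compared with those of mice fed an iron-sufficient diet, across all genes measured by RNA sequencing. The comparison takes every library of these 2 diets, which is 6 of the 9 libraries of the series, 3 per diet, and the libraries were chosen by their diet label alone. All mice were male wild-type C57BL/6 animals from Jackson Laboratories. At 5 weeks of age they were moved to AIN-93G, a purified rodent feed without soy, that held 1000 mg (high iron) or 37.5 mg (sufficient iron) of iron per kg. They stayed on it for 50 days, and liver RNA was taken at 12 weeks of age. The remaining 3 libraries, from mice on the same feed with 2.5 mg iron per kg (low iron), entered the fit and are given beside the others. Each diet was given to 3 mice, and every library carries a number of its own in its title. The hemojuvelin (Hjv) knockout mice named in the protocol are not analysed here, nor is the iron content of the livers.

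The liver is the main store of body iron, which it keeps in ferritin, and it makes hepcidin, the peptide hormone that lowers iron release into plasma by blocking the exporter ferroportin. Iron raises hepcidin through bone morphogenetic proteins (BMPs) made by sinusoidal endothelial cells, which act on hepatocytes through SMAD proteins. Excess iron promotes oxidation of lipids and proteins, and the hepatocyte is also where fatty acids are oxidised in peroxisomes and mitochondria, where cholesterol is passed into bile and where the acute phase and complement proteins of plasma are made.

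The 6 libraries held 24043466 to 33807087 reads in genes. Levels are CPM, a gene's reads divided by the scaled size of its library, and they depend on transcript length, so they are compared between livers and not between genes. Rn45s, the ribosomal RNA precursor, took 12.5% to 23% of the gene reads in 5 of the 6 libraries and 40.5% in high-iron library 12. Leaving out Rn45s and Lars2, whose share was 3.47% to 10.4% in the 6 libraries, gave 26 calls, all among those made with them. Low-iron library 1, which entered the fit, had the highest shares of the 9 libraries, 43.7% for Rn45s and 11.6% for Lars2. Without that library there were 56 calls. Sufficient-iron library 6 stood apart from the other sufficient-iron libraries for several gene groups, and values without it are given for some of them. Of the 11 hepatocyte markers listed, 11 passed the filter on low counts, with a median log2 fold change between the diets of -0.0461, which ran to -0.219 without sufficient-iron library 10. Values are listed in the order of libraries 2, 6 and 10 for sufficient iron, 4, 8 and 12 for high iron and 1, 5 and 9 for low iron. A log2 fold change is high iron minus sufficient iron and is followed by its standard error (SE).

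Genes of fatty acid oxidation, lipid uptake and sterol export were among those that rose in high-iron livers, with the BMP-pathway gene Smad9, the glutathione transferase gene Gsta2 and the keratin gene Krt23. Nnmt, Alas2, the prolactin receptor gene Prlr, a calcium pump gene and a pair of antiviral genes were among those that fell. Of 13020 genes tested, 28 changed (0.215%), 13 higher (0.0998%) and 15 lower (0.115%), by edgeR quasi-likelihood test with Benjamini-Hochberg adjusted p under 0.05. An unadjusted p under 0.05 was reached by 1208 genes (9.28%), 541 higher (4.16%) and 667 lower (5.12%). The median log2 fold change over all tested genes was -0.0105, and 48.1% of the values were positive.

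In each of the 28 genes the high-iron libraries lay outside the range of all 6 other libraries, which 2.57% of tested genes did above and 2.88% below. This separation was not required for a call, but it goes with a small p. Among the 28, 20 differed by more than 1 on the log2 scale, and the smallest difference was 0.687. Among those that rose, 1 has only a clone name. The low-iron libraries overlapped the sufficient-iron libraries in 18 of the 28, lay above all of them in 7 and below all of them in 3. Over all tested genes these shares were 8.81% above and 7.83% below. Both comparisons use the same sufficient-iron libraries, so the low-iron values are given as levels only.

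The number of calls depended on single libraries. It was 0 without high-iron library 4 (959 genes at an unadjusted p under 0.05) and 0 without high-iron library 8 (643 genes). Without sufficient-iron library 10 there were 4 calls and without high-iron library 12 there were 8, while DESeq2 called 218 genes. In each of these fits all 28 genes kept their direction and an unadjusted p under 0.05. The medians of gene lists given below also rest on few livers, and 42 of the 47 list medians moved by over 1.5 times when 1 library was left out, 16 of them to the other sign.

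**Figure D1:**
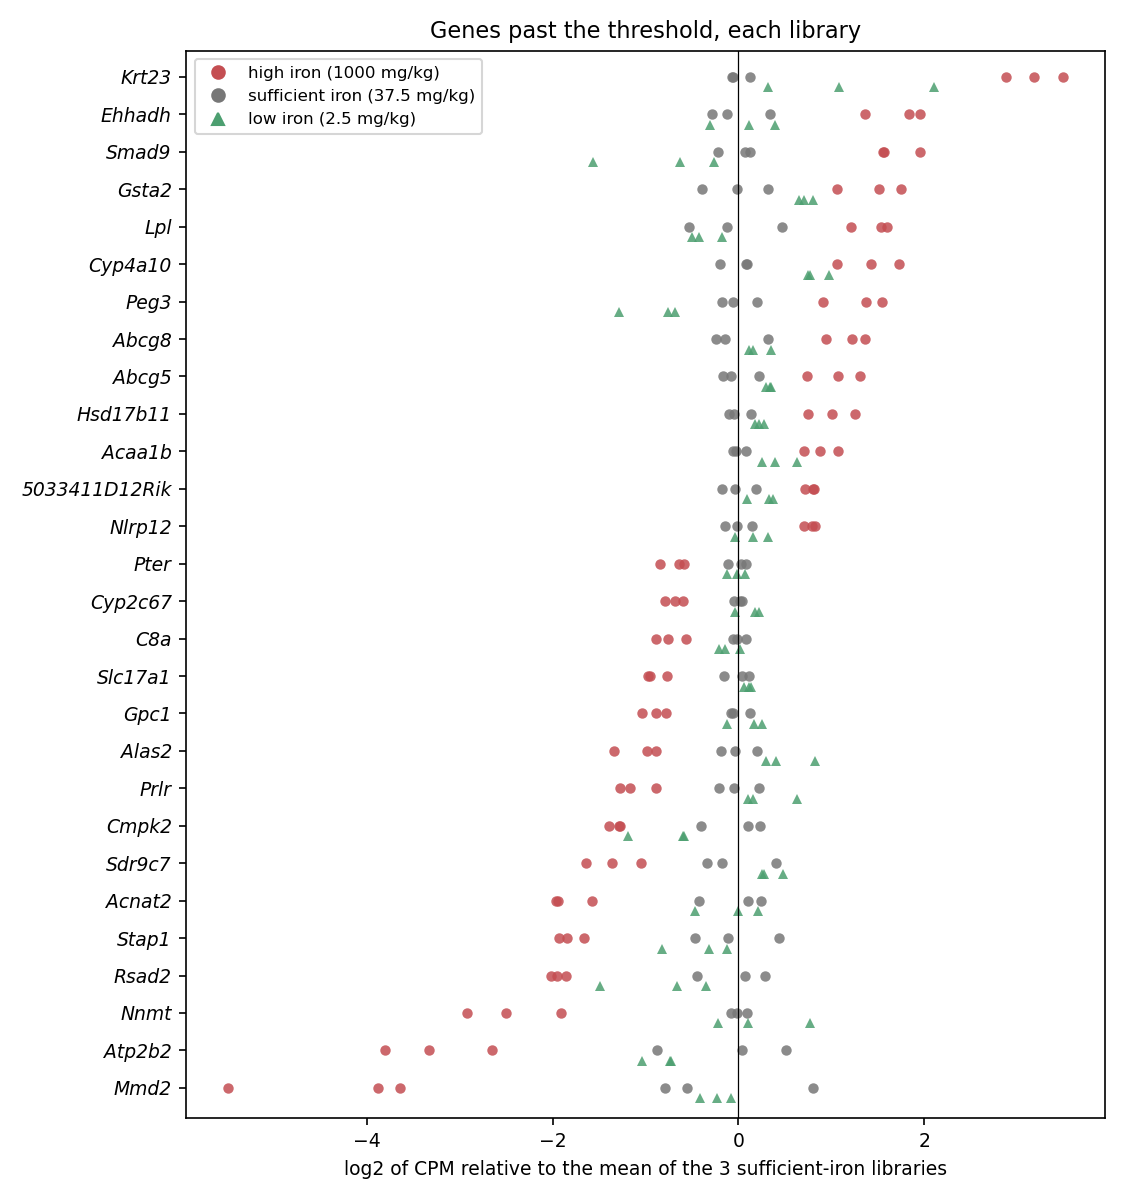
Level of the 28 called genes in each library, as log2 of CPM relative to the mean of the 3 sufficient-iron libraries (x axis), 1 row per gene and 1 point per library, with high iron as red circles, sufficient iron as grey circles and low iron as green triangles. In every row the red points lie outside the range of the grey and green points.

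**Figure D2:**
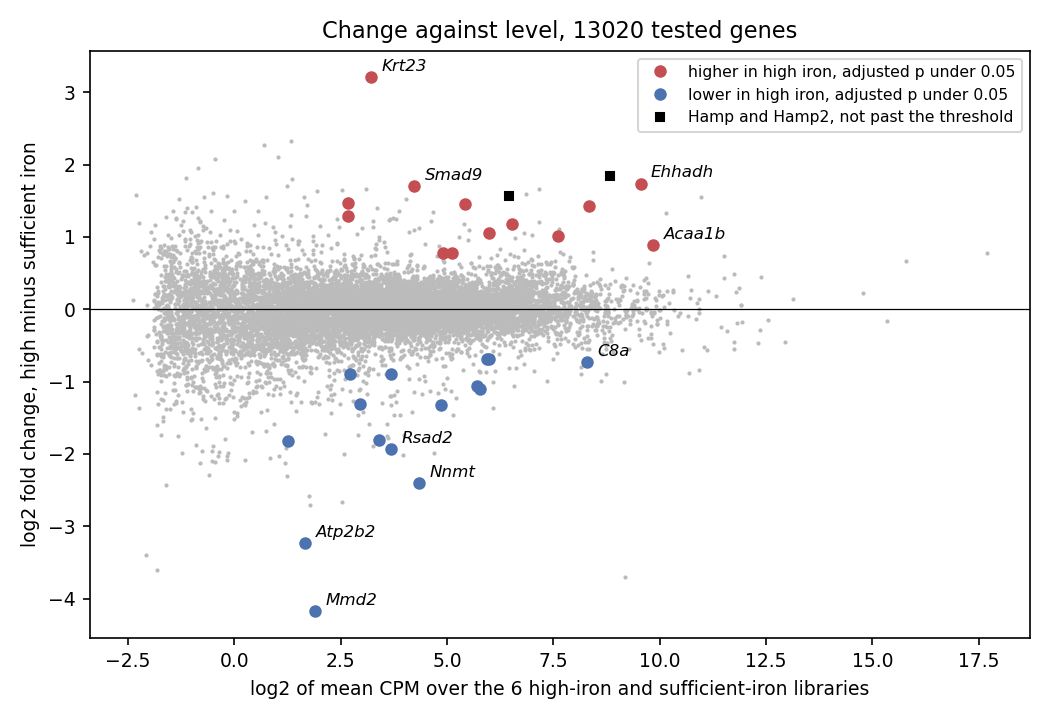
The log2 fold change of each of the 13020 tested genes (y axis, high minus sufficient iron) against the log2 of its mean CPM over the 6 libraries (x axis). Red and blue points are the 13 genes that rose and the 15 that fell, and the black squares are the hepcidin genes Hamp and Hamp2, which did not pass the test.

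Peroxisomal fatty acid oxidation genes lay higher in high-iron livers. Peroxisomes shorten very long and dicarboxylic fatty acids in a cycle whose steps include those of Ehhadh (bifunctional enzyme) and the thiolases of the Acaa1 pair. Ehhadh stood at 316, 436 and 285 CPM in sufficient-iron livers and at 1231, 1340.0 and 891 CPM in high-iron livers. The lowest high-iron value was above the highest sufficient-iron value, and the low-iron livers, at 279, 452 and 373 CPM, spanned the sufficient-iron range. Its log2 fold change was 1.74 ± 0.23 (adjusted p = 0.0265, edgeR).

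Acaa1b stood at 638, 683 and 622 CPM in sufficient-iron livers and at 1188, 1359.6 and 1058 CPM in high-iron livers, a rise of 0.89 ± 0.14 on the log2 scale (edgeR adjusted p = 0.0341). Low-iron livers, at 848, 1003 and 774 CPM, lay between the other diets without overlap. Reads that align to several places were left out of the counts, so the split between Acaa1b and its near copy Acaa1a is uncertain. The isomerase gene Eci2 had a value of 0.74 (adjusted p = 0.0742) and no overlap between the diets.

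Across the 23 tested genes of peroxisomal oxidation, 2 rose and 0 fell, 9 were higher and 1 lower at an unadjusted p under 0.05, and 19 of 23 values were positive. The diets did not overlap in 11 genes on the higher side and 2 on the lower, against 8.99% and 8.85% of all tested genes. The median log2 fold change was 0.313. Per library, the median of the list relative to the sufficient-iron mean was -0.106, 0.115 and -0.0276 in sufficient iron and 0.25, 0.378 and 0.244 in high iron, so the diets did not overlap. The low-iron livers, at -0.0625, 0.258 and 0.198, overlapped both.

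Omega-oxidation converts fatty acids at their methyl end into dicarboxylic acids, which peroxisomes then shorten, and its first step is carried by cytochromes of the Cyp4a family. Cyp4a10 stood at 187, 185 and 153 CPM in sufficient-iron livers and at 469.8, 578 and 364 CPM in high-iron livers. It rose by 1.43 ± 0.17 on the log2 scale (edgeR adjusted p = 0.0194), and the low-iron livers, at 299, 344 and 294 CPM, lay above every sufficient-iron liver and below every high-iron one. Its relatives Cyp4a14 (1.34, edgeR adjusted p = 0.124), Cyp4a31 (1.53, 0.125) and Cyp4a32 (0.91, 0.211) had positive values without passing the edgeR test, and DESeq2 called all 3.

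Cyp4a14 was at 756, 801 and 365 CPM in sufficient iron and at 1647, 1925 and 1282 CPM in high iron, without overlap, and sufficient-iron library 10 was the lowest. Counts within this gene family share reads that could not be placed, so the division among its members is uncertain. Of 12 tested genes of the omega-oxidation list 1 rose, 7 were higher and 1 lower at an unadjusted p under 0.05, and 8 were higher and 1 lower with no overlap between the diets, against 8.99% and 8.85% of all tested genes. The median was 0.421.

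Mitochondrial fatty acid oxidation showed smaller values. Of 25 tested genes 0 passed the edgeR test, 5 were higher and 1 lower at an unadjusted p under 0.05, and the median was 0.164, or 0.0745 without high-iron library 8. DESeq2 called 2 of them, Acot1 and Eci1, and limma-voom 0. By library the list median overlapped between the diets, with high-iron library 12 at 0.0662 and sufficient-iron library 6 at 0.151. The low-iron livers, at 0.0547, 0.213 and 0.3, covered the high-iron range. Acot1, a cytosolic acyl-CoA thioesterase, was at 14.7, 16.8 and 11.6 CPM against 40.8, 43.7 and 24.4 CPM (1.34 ± 0.27, edgeR adjusted p = 0.0952). The enoyl-CoA isomerase gene Eci1 had a value of 0.54 (edgeR adjusted p = 0.174) and the dienoyl-CoA reductase gene Decr1 one of 0.31 (0.458).

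Fgf21, the fasting hormone of the liver, went the other way, at 4.85, 21.8 and 7.7 CPM in sufficient iron and 3.81, 3.46 and 3.1 CPM in high iron (-1.73 ± 0.57, edgeR adjusted p = 0.4). Its value rested in part on sufficient-iron library 6 and was -0.861 without that library.

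Acnat2 was the one gene of the thioesterase and conjugation list that passed edgeR, and it fell. It encodes an acyltransferase that joins fatty acids to amino acids in peroxisomes, and it stood at 19.5, 17.6 and 12.3 CPM in sufficient-iron livers and at 5.52, 4.28 and 4.22 CPM in high-iron livers. It fell by 1.81 ± 0.22 on the log2 scale (edgeR adjusted p = 0.0194), and the low-iron livers, at 16.5, 19.1 and 11.9 CPM, overlapped the sufficient-iron ones. Acnat2 has a close paralog, so its counts are uncertain in level. In the list of 16 tested thioesterase and conjugation genes 3 were higher and 3 lower at an unadjusted p under 0.05, among them Keg1 at 0.72 and Acot11 at -1.11, and the median was 0.0971. DESeq2 called 2 members higher (Acot1 and Keg1) and 2 lower (Acnat2 and Acot11), and limma-voom called Acnat2 alone. The list median was 0.213 without sufficient-iron library 6 and 0.0226 without library 2.

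Lpl and Hsd17b11, genes of fatty acid uptake and lipid droplets, rose. Lpl, the lipoprotein lipase that frees fatty acids from circulating triglyceride, stood at 21.1, 31.8 and 15.9 CPM in sufficient-iron livers and at 66.2, 69.5 and 52.9 CPM in high-iron livers. The log2 fold change was 1.45 ± 0.22 (edgeR adjusted p = 0.0341), and the low-iron livers, at 20.2, 16.2 and 17.1 CPM, lay in the lower part of the sufficient-iron range. Hsd17b11, a dehydrogenase of the lipid-droplet surface, was at 142, 125 and 120.4 CPM against 259, 308 and 217 CPM, a rise of 1.02 ± 0.14 (edgeR adjusted p = 0.0305). Its low-iron values, 146, 156 and 151 CPM, were above all sufficient-iron values and below all high-iron ones.

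Lpl is also expressed by fat tissue and macrophages. Of the 12 adipocyte and mesothelium markers listed, Lep and Plin1 had 0 reads in all 9 libraries and Adipoq had 4 and Retn 17 reads in all. The 8 tested members, Lpl among them, had 7 positive values and a median of 1.09. At an unadjusted p under 0.05, 3 were higher and 1 lower. Car3, which hepatocytes also express, made up most of the summed level of the list. That sum ran from 1206 to 1385 CPM in high iron and from 1504 to 2100 CPM in sufficient iron. Cfd, an adipocyte protease gene, was at 0.51, 0.99 and 0.938 CPM in sufficient iron and 5.85, 0.975 and 5.88 CPM in high iron, with overlap (2.33, edgeR adjusted p = 0.41). Whether cells of fat tissue took part in the Lpl value was not tested.

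Among the other uptake genes, the fatty acid transporter gene Slc27a1 was at 3.02, 2.44 and 4.06 CPM against 5.45, 8.02 and 9.19 CPM (1.25 ± 0.24, edgeR adjusted p = 0.081). The lipase inhibitor gene Angptl4 had a value of 0.6 (edgeR adjusted p = 0.245). In all, 8 of the 29 tested genes were higher and 1 lower at an unadjusted p under 0.05, with a median of 0.168 (0.0839 without high-iron library 8). Vnn1, a pantetheinase gene and the gene with the lowest p on the higher side short of the threshold, was at 76.9, 80.9 and 84.8 CPM against 147, 148 and 133 CPM (0.82 ± 0.14, edgeR adjusted p = 0.054), with low-iron livers at 97.3, 92 and 132 CPM.

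The sterol exporter genes rose together. Abcg5 and Abcg8 encode the partners of the transporter that moves cholesterol and plant sterols into bile, and they lie head to head. Their promoters are shown because both genes rose and share a stretch of 109 bases between their starts, at chr17:84683012-84683120 of the mouse build GRCm38.p6 (RefSeq), written on the plus strand in lower case with no part marked. RefSeq lists a further start for Abcg8.
Abcg5 and Abcg8: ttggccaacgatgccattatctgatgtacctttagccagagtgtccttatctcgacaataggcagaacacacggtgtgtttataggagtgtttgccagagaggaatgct

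Abcg5 stood at 39, 36.7 and 47.9 CPM in sufficient-iron livers and at 68.5, 102 and 86.6 CPM in high-iron livers, a rise of 1.06 ± 0.15 (edgeR adjusted p = 0.0341). Abcg8 stood at 51.1, 47.6 and 70.3 CPM and 108, 144 and 132 CPM, a rise of 1.19 ± 0.17 (edgeR adjusted p = 0.0331). In both genes high-iron library 8 was the highest and the diets were separate. Low-iron livers stood at 52.3, 52 and 50.7 CPM for Abcg5, above all sufficient-iron livers, and at 60.8, 62.9 and 71.7 CPM for Abcg8, which overlapped them.

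Other transporters of the canalicular and sinusoidal membrane were mixed. Abcc3, which exports conjugates into blood, was at 163, 211 and 167 CPM against 279, 309.8 and 303 CPM without overlap (0.72 ± 0.13, edgeR adjusted p = 0.058). Slc10a2, the sodium-dependent bile acid importer better known from the ileum, was at 14.7, 26 and 13.9 CPM against 7.86, 4.31 and 6.04 CPM (-1.59 ± 0.27, edgeR adjusted p = 0.0527). Over the 24 tested genes of sterol and bile transport 2 rose, 4 were higher and 3 lower at an unadjusted p under 0.05, and the median was 0.0362, near that of all genes.

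Cholesterol synthesis genes had mostly positive values, with 23 of 25 above 0 and a median of 0.268. None of the 25 passed the test in edgeR, DESeq2 or limma-voom, while 6 were higher and 0 lower at an unadjusted p under 0.05 in edgeR. Pmvk, phosphomevalonate kinase, was at 67.4, 51.4 and 66.3 CPM against 94.3, 82.7 and 87.4 CPM (0.51 ± 0.16, edgeR adjusted p = 0.363). Lss, lanosterol synthase, had a value of 0.58 (edgeR adjusted p = 0.413), Tm7sf2 one of 0.54 (0.392) and Hsd17b7 one of 0.36 (0.474). The list median was 0.151 without high-iron library 12 and 0.163 without sufficient-iron library 6. By library it was -0.0624, -0.165 and 0.171 in sufficient iron and 0.0645, 0.274 and 0.51 in high iron. High-iron library 4 lay below sufficient-iron library 10, so the diets overlapped.

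Bile acid synthesis gave 0 calls among 16 tested genes in edgeR, DESeq2 and limma-voom, with 0 higher and 4 lower at an unadjusted p under 0.05 in edgeR and a median of -0.0045. Cyp7a1, the rate-limiting enzyme, was at 51.2, 192 and 50.6 CPM in sufficient iron and at 48.2, 26.6 and 39.2 CPM in high iron (-1.37 ± 0.46, edgeR adjusted p = 0.418). Sufficient-iron library 6 alone was far above the rest, and without it the value was -0.423. The apolipoprotein gene Apoa4 had the same shape, at 371, 2281 and 602 CPM against 84.2, 80.0 and 84.8 CPM. Its value of -3.71 ± 0.69 (edgeR adjusted p = 0.0851) became -2.55 without library 6, and the high-iron livers were below every other liver.

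Genes of lipogenesis and carbohydrate use pointed both ways, with 0 of 22 past edgeR, 5 higher and 1 lower at an unadjusted p under 0.05 and a median of 0.151. DESeq2 called 3 of them and limma-voom 0. The list median was 0.0652 without sufficient-iron library 6 and 0.308 without library 2. G6pdx, which supplies NADPH, was at 14.5, 6.81 and 12.3 CPM against 24.5, 21.7 and 24.1 CPM (1.07 ± 0.28, edgeR adjusted p = 0.212), and the malic enzyme gene Me1 had a value of 0.63 (edgeR adjusted p = 0.336). Pklr, the liver pyruvate kinase, was at 488, 279.7 and 322 CPM against 202, 199 and 227 CPM (-0.79 ± 0.20, edgeR adjusted p = 0.186).

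**Figure D3:**
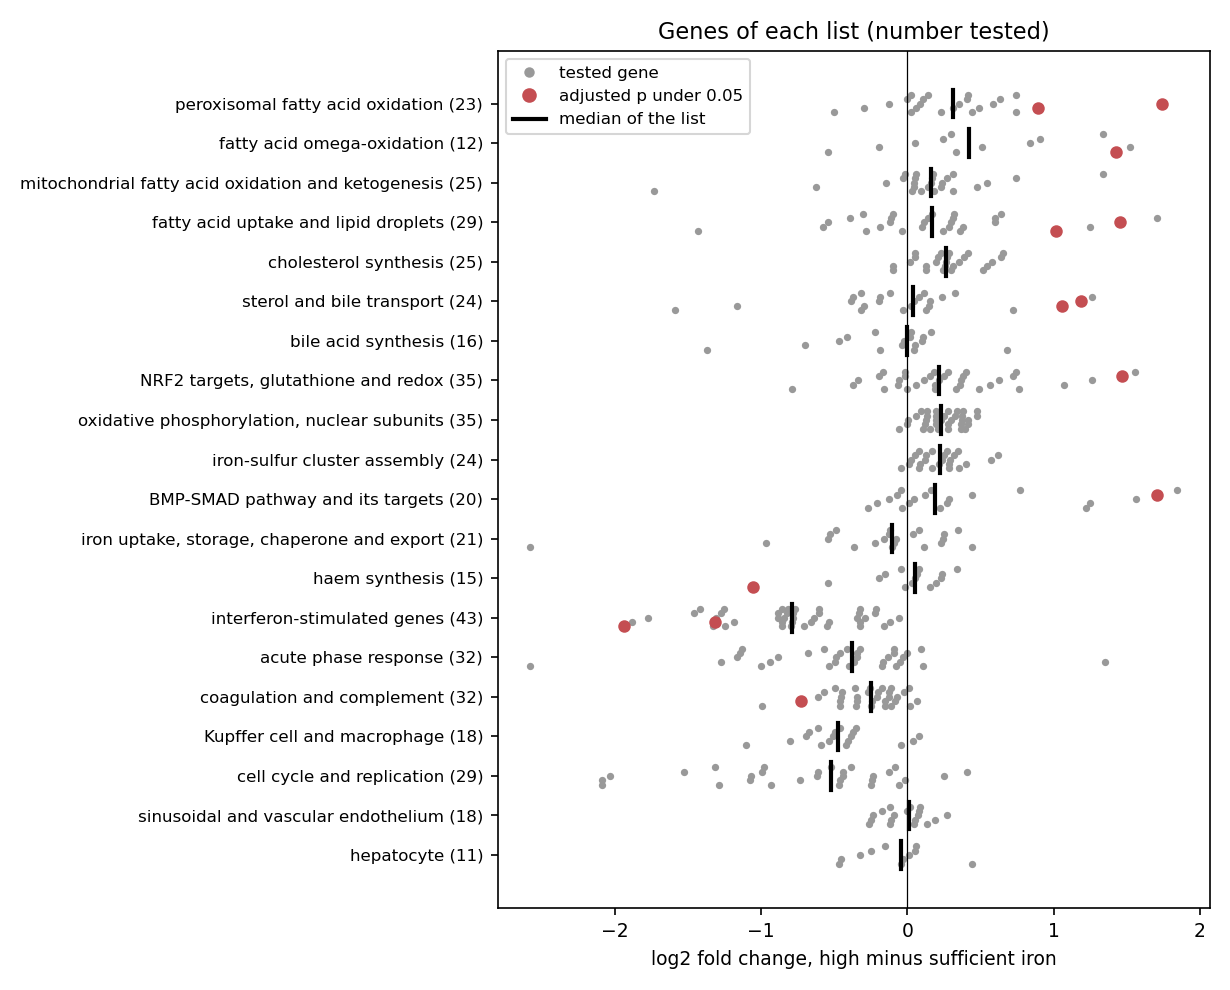
The log2 fold change (x axis, high minus sufficient iron) of each tested gene in 20 lists, with the number tested in brackets. Grey points are genes that did not pass the test, red points genes that did, and black bars the list medians, which run from -0.79 for interferon-stimulated genes to 0.421 for omega-oxidation.

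Smad9 was the one gene of the BMP-SMAD pathway that rose. It encodes SMAD8, a SMAD protein whose transcript is induced by BMP signalling. Smad9 stood at 9.58, 7.53 and 9.24 CPM in sufficient-iron livers and at 25.9, 26 and 34.1 CPM in high-iron livers, with low-iron livers at 5.7, 2.96 and 7.29 CPM. The 3 diets were separate and in the order of their iron content. The rise from sufficient to high iron was 1.71 ± 0.26 on the log2 scale (edgeR adjusted p = 0.0341).

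Hamp, the hepcidin gene, did not pass the test, although its level was ordered by diet. Sufficient-iron livers held 186, 134 and 276 CPM, high-iron livers 625, 957 and 563 CPM and low-iron livers 21.8, 0.805 and 4.62 CPM, with no overlap between any of the diets. Its log2 fold change was 1.85 ± 0.76 (edgeR adjusted p = 0.517), and its SE comes from a fit that pools the spread over the 3 diets. Hamp2, a mouse paralog that cannot be fully separated from Hamp by uniquely placed reads, was at 49, 31.4 and 52.3 CPM against 121, 154 and 117 CPM (1.57 ± 0.65, edgeR adjusted p = 0.517). In a fit of the 6 high-iron and sufficient-iron libraries alone Hamp2 passed (adjusted p = 0.0371), as it did without low-iron library 1 (adjusted p = 0.0167). Hamp itself passed in 0 of the 18 alternative fits.

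BMP targets often carry the sequence GGCGCC near their start, a core of the BMP-responsive element that SMAD1, SMAD5 and SMAD8 bind. The stretches of the Smad9 and Hamp promoters with a match are shown since both genes stood highest in high iron, with the match in capitals and each written 5′ to 3′ on the strand of the gene. They lie at chr3:54755506-54755561 (plus strand) and chr7:30944108-30944163 (minus strand) of GRCm38.p6 and come from RefSeq.
Smad9: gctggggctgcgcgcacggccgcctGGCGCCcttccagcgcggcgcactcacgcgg
Hamp: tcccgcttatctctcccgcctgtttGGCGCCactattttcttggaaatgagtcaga

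The search for GGCGCC, which reads the same on both strands, covered the 250 bases before each RefSeq start. A match was found in 7 of the 14 BMP-SMAD genes with such a window and in 10.8% of the 27025 genes with one. The 7 were Hamp, Smad9, Id2, Smad5, Neo1 and the receptor genes Bmpr1a and Bmpr2. Of these Smad5, Neo1, Bmpr1a and Bmpr2 had negative log2 fold changes, so a match was not limited to genes that were higher. Among the 22 called genes with a window 2 had a match, Smad9 and Peg3. A match describes these letters and shows neither binding nor a cause.

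Known feedback targets of the pathway had positive values without passing edgeR. Id1 was at 3.32, 3.2 and 15.9 CPM against 10.3, 28.1 and 15.1 CPM, and sufficient-iron library 10 overlapped the high-iron livers. The value of 1.25 ± 0.59 (edgeR adjusted p = 0.555) became 2.44 without that library. Atoh8, a transcription factor gene of the hepcidin pathway, was at 13.2, 8.81 and 22.5 CPM against 32.4, 49.2 and 21.7 CPM (1.22 ± 0.36, edgeR adjusted p = 0.294), and DESeq2 called it. Smad7, the inhibitory SMAD, had a value of 0.77 ± 0.36 (edgeR adjusted p = 0.544).

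Bmp6, the ligand, was at 3.72, 3.52 and 5.22 CPM in sufficient iron and 5.82, 4.18 and 5.02 CPM in high iron (0.27 ± 0.20, edgeR adjusted p = 0.679), with overlap, and at 2.42, 1.98 and 1.9 CPM in low iron, below every other liver. Its source, the sinusoidal endothelium, had 18 tested markers with a median of 0.00952 and 0 at an unadjusted p under 0.05. In all, 1 of 20 tested BMP-SMAD genes rose, 4 were higher and 0 lower at an unadjusted p under 0.05, and 14 of 20 values were positive. The median was 0.193, but 0.0211 without sufficient-iron library 6 and 0.357 without library 10.

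Iron handling genes themselves gave no call in edgeR. Of a panel of 15 tested iron genes 0 passed, 3 were higher and 2 lower at an unadjusted p under 0.05, DESeq2 called 1 (Atoh8) and limma-voom 0. Slc11a2, the iron importer DMT1, was at 28.4, 30.4 and 24.6 CPM in sufficient-iron livers and 22.4, 18.9 and 15.9 CPM in high-iron livers, with low-iron livers at 34.2, 40.0 and 32 CPM. The diets were separate and in the reverse order of their iron content (-0.54 ± 0.15, edgeR adjusted p = 0.245). Tfrc, the transferrin receptor whose messenger RNA is stabilised when iron is scarce, was at 36.9, 30.8 and 12.8 CPM against 18.2, 10.7 and 12.1 CPM, with sufficient-iron library 10 inside the high-iron range (-0.97 ± 0.42, edgeR adjusted p = 0.532). Low-iron livers held 47.5, 110.2 and 52.2 CPM of it.

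The ferritin subunits, which are controlled largely at translation, had small values. Fth1 had a log2 fold change of 0.24 ± 0.15 (edgeR adjusted p = 0.635) and Ftl1 one of 0.44 ± 0.23 (0.59). Slc40a1, which encodes ferroportin, was at 140.0, 159.7 and 113 CPM against 149, 102 and 131 CPM, overlapping (-0.12 ± 0.21, edgeR adjusted p = 0.861). The iron-sensing receptor genes Tfr2 (-0.14), Hfe (0.01) and Hjv, which is named Hfe2 in the tables (-0.07), and the importer gene Slc39a14 (-0.16) overlapped between the diets, with edgeR adjusted p from 0.696 to 0.988. Transferrin, under the symbol Trf, was at 7914, 10545 and 8698 CPM against 7059, 6998 and 5793 CPM, without overlap (-0.45 ± 0.16, edgeR adjusted p = 0.425).

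In the wider list of 21 tested genes of iron uptake, storage and export 0 passed edgeR, 1 was higher and 3 lower at an unadjusted p under 0.05, and the median was -0.102. DESeq2 called 1 of them, Lcn2, a siderophore-binding acute phase protein, and limma-voom 0. Lcn2 was at 2.08, 11.1 and 4.08 CPM against 0.803, 1.1 and 1.01 CPM, and its value of -2.58 ± 0.62 (edgeR adjusted p = 0.173) was -1.68 without sufficient-iron library 6. The mitochondrial iron importer gene Slc25a37 had a value of 0.34 (edgeR adjusted p = 0.392) with no overlap.

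**Figure D4:**
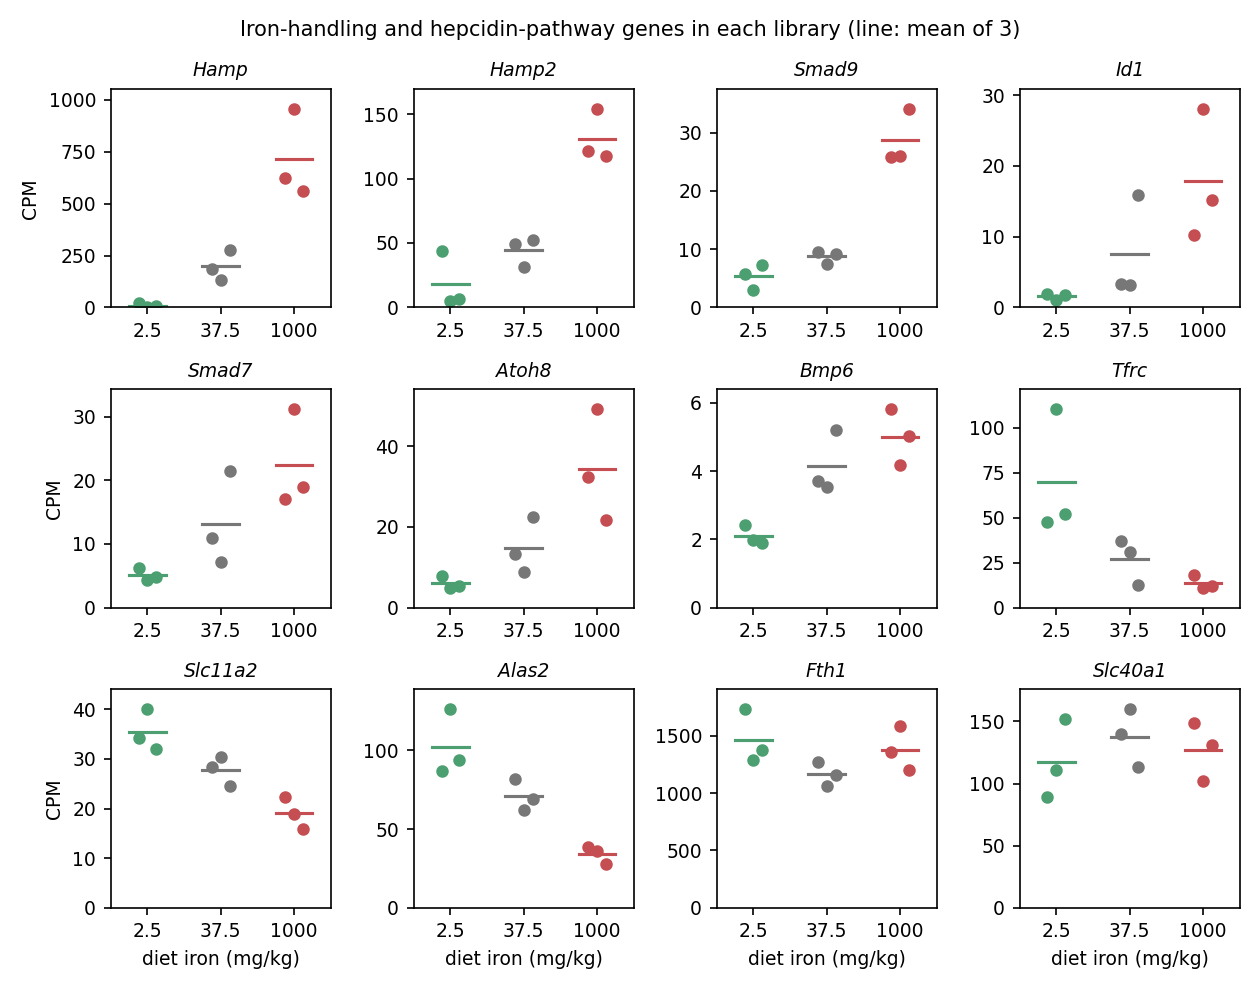
CPM (y axis, from 0) of 12 iron-handling and BMP-pathway genes in each library by iron content of the diet (x axis, mg/kg), with 1 point per library and a line at the mean of 3. Hamp, Smad9, Slc11a2 and Alas2 are separate in all 3 diets, and of the 12 genes Smad9 and Alas2 passed the edgeR test between 37.5 and 1000 mg/kg.

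Alas2 fell in high-iron livers. It encodes the 5-aminolevulinate synthase of red-cell precursors, which starts haem synthesis, and its messenger RNA carries an iron-responsive element that blocks its translation when iron is scarce. Alas2 stood at 81.5, 62.3 and 69.1 CPM in sufficient-iron livers, 38.4, 35.8 and 28.1 CPM in high-iron livers and 86.9, 126 and 93.7 CPM in low-iron livers, so that the 3 diets were separate in the reverse order of their iron content. The fall from sufficient to high iron was 1.06 ± 0.17 on the log2 scale (edgeR adjusted p = 0.0479).

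Red-cell transcripts gave little to set beside it. The globin genes Hba-a1, Hba-a2, Hbb-b1 and Hbb-b2 are listed at 0 in all 9 libraries. They are near-identical copies, and whether these zeros come from the gene models used or from leaving out reads placed in several positions was not tested, so they give no measure of red-cell content. Of 15 erythroid and blood markers listed, 5 were tested, with a median of -0.0437, and Klf1, an erythroid transcription factor gene, was at 1.09, 0.782 and 1.57 CPM against 0.836, 1.7 and 1.6 CPM. The part of red-cell precursors in the Alas2 value was not tested, and in bulk liver fewer cells of a type and less RNA per cell cannot be told apart.

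The rest of haem metabolism had small values. Among 15 tested genes of haem synthesis 1 fell, 1 was higher and 2 lower at an unadjusted p under 0.05, and the median was 0.0521. Fech, ferrochelatase, which puts iron into the ring, was at 131, 127 and 142 CPM against 166, 179.9 and 161 CPM with no overlap (0.34 ± 0.11, edgeR adjusted p = 0.386). Slc48a1, which carries haem out of lysosomes, was at 34.3, 39.2 and 36.7 CPM against 56.1, 65.8 and 50.5 CPM, again without overlap (0.65 ± 0.14, edgeR adjusted p = 0.121). Hpx, the haem-binding plasma protein hemopexin, had a value of -0.88 (edgeR adjusted p = 0.322) that was -0.446 without sufficient-iron library 6, the highest.

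The respiratory chain and the assembly of iron-sulfur clusters both draw on mitochondrial iron, and their nuclear genes had small positive values. Of 35 nuclear subunits of oxidative phosphorylation 33 had positive values with a median of 0.231, while 0 passed edgeR, DESeq2 or limma-voom and 0 had an unadjusted p under 0.05 in edgeR. Of 24 genes of iron-sulfur cluster assembly 23 had positive values with a median of 0.225, 0 passed in any of these tools and 1 was higher at an unadjusted p under 0.05, Fam96b (0.62, edgeR adjusted p = 0.504). High-iron library 12 gave the lowest high-iron median in both lists, 0.0799 and 0.029, and library 8 the highest, 0.387 and 0.337. Without library 8 the list medians were 0.141 and 0.123, and the iron-sulfur median was 0.121 without sufficient-iron library 6. The low-iron livers, at 0.777, 0.211 and 0.307 for oxidative phosphorylation and 0.495, 0.102 and 0.139 for iron-sulfur clusters, also lay above all sufficient-iron livers, so the positive values were not particular to high iron. Sufficient-iron library 2, at 0.101, overlapped the high-iron libraries for oxidative phosphorylation. For iron-sulfur clusters sufficient-iron libraries 2 and 10, at 0.0639 and 0.0474, overlapped them.

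Glutathione transferases and other genes of redox defence lay mostly higher in high-iron livers. Gsta2, an alpha-class glutathione transferase, stood at 3.35, 4.23 and 2.59 CPM in sufficient-iron livers and at 9.66, 11.4 and 7.05 CPM in high-iron livers, a rise of 1.47 ± 0.22 (edgeR adjusted p = 0.0341). Low-iron livers, at 5.54, 5.93 and 5.32 CPM, lay between the other diets without overlap. The alpha class has close paralogs, so its level is uncertain.

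Gstm1, of the mu class, was at 956, 1162 and 935 CPM against 2642, 3913 and 2418 CPM, without overlap (1.55 ± 0.30, edgeR adjusted p = 0.0898), while low-iron library 1, at 2388 CPM, was close to the lower high-iron livers. Gstm4 was at 71, 67.8 and 59.9 CPM against 120.2, 125 and 91.2 CPM (0.76 ± 0.14, edgeR adjusted p = 0.0634). Over the 35 tested NRF2 targets and redox genes 1 rose, and 11 were higher and 1 lower at an unadjusted p under 0.05. The diets did not overlap in 13 genes on the higher side and 0 on the lower, against 8.99% and 8.85% of all tested genes. The median log2 fold change was 0.219 (0.38 without sufficient-iron library 6), and DESeq2 called 7 members, all higher. By library the list median overlapped between the diets, with high-iron library 12 at 0.137 and sufficient-iron library 6 at 0.147. Low-iron library 1 was at 0.191.

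The separate list of peroxidases, dismutases and ferroptosis defence had 0 of 24 tested genes past edgeR, DESeq2 or limma-voom and 0 at an unadjusted p under 0.05 in edgeR. Its median was 0.12, or 0.0602 without high-iron library 8. Cat, catalase, was at 2185, 1850.5 and 2073 CPM against 2373, 2626 and 2288 CPM (0.25 ± 0.12, edgeR adjusted p = 0.544), separate between sufficient and high iron. Selenbp1, a selenium-binding protein gene just short of the threshold, was at 92.6, 93.2 and 93.9 CPM against 129, 159.6 and 151 CPM (0.65 ± 0.11, edgeR adjusted p = 0.058). Low-iron livers, at 2621, 2751.5 and 2520 CPM for Cat and 139, 121.1 and 120.6 CPM for Selenbp1, also lay above all sufficient-iron livers. They overlapped the high-iron livers in both genes.

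Interferon-stimulated genes lay lower in high-iron livers, and 2 of them, Rsad2 and Cmpk2, fell. Rsad2 encodes viperin, an antiviral enzyme that makes a chain-terminating nucleotide, and Cmpk2 encodes a mitochondrial nucleotide kinase. The genes are neighbours on chromosome 12, with starts 12.8 kb apart. Promoter stretches of Rsad2, Ifit1 and Isg15 are shown. Capitals mark matches to the core of the interferon-stimulated response element (GAAA, any 2 bases, GAAA), or to its reverse complement. These genes were picked among the list members of lowest p because their windows hold a match. The window of Cmpk2, which has a lower p than Ifit1 and Isg15, holds none. Each is written 5′ to 3′ on the strand of the gene, from RefSeq on GRCm38.p6, at chr12:26456538-26456597 (minus strand), chr19:34640760-34640819 (plus strand) and chr4:156200862-156200921 (minus strand). In Isg15 the capitals span 3 overlapping matches.
Rsad2: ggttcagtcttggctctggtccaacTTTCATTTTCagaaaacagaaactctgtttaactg
Ifit1: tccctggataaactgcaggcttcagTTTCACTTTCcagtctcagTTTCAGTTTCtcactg
Isg15: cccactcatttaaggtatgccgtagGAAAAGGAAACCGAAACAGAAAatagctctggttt

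Within 250 bases before the start, on either strand, this core was found in 16 of the 31 listed interferon-stimulated genes with a window (51.6%) and in 3.46% of all genes with one. Among the 22 called genes with a window it was found in 1, Rsad2. These matches describe the promoters, and no relation to the size of a change was computed.

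Rsad2 stood at 15, 21.6 and 25 CPM in sufficient-iron livers and at 5.68, 5.32 and 5.07 CPM in high-iron livers, a fall of 1.94 ± 0.27 (edgeR adjusted p = 0.0314). Cmpk2 stood at 8.34, 11.9 and 12.9 CPM and 4.58, 4.53 and 4.22 CPM, a fall of 1.31 ± 0.20 (edgeR adjusted p = 0.0341). The high-iron livers were alike in both genes, whereas the sufficient-iron livers were spread, with library 2 the lowest. The low-iron livers, at 7.33, 12.9 and 16.2 CPM for Rsad2 and 4.84, 7.32 and 7.37 CPM for Cmpk2, lay above the high-iron livers in both genes and overlapped the sufficient-iron ones for Rsad2.

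Ifit1, which binds foreign RNA caps, was at 10.1, 13.9 and 21.5 CPM against 2.71, 4.94 and 4.75 CPM (-1.88 ± 0.34, edgeR adjusted p = 0.0634). Isg15, a ubiquitin-like modifier, was at 6.45, 11.8 and 10.9 CPM against 3.38, 4.31 and 4.43 CPM (-1.27 ± 0.25, edgeR adjusted p = 0.0854). All 43 tested members of the list had negative values, from -0.0591 to -1.94, with a median of -0.79, against a median of -0.0105 and 51.9% negative values over all genes. At an unadjusted p under 0.05, 27 were lower. In 18 the diets did not overlap, all on the lower side, against 8.85% of all tested genes. DESeq2 called 12 members, all lower, and limma-voom the same 2 as edgeR.

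By library, the list median relative to the sufficient-iron mean was -0.453, 0.101 and 0.314 in sufficient iron, -0.826, -0.733 and -0.454 in high iron and -0.86, -0.688 and -0.16 in low iron. Sufficient-iron library 2 thus lay level with high-iron library 12, and the low-iron livers covered the high-iron range. The median fold change ran from -0.95 without sufficient-iron library 2 to -0.574 without library 10.

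Markers of Kupffer cells, the resident macrophages of the liver, lay lower beside these genes. Of 18 listed and tested 16 had negative values with a median of -0.476 (-0.294 without sufficient-iron library 2), 0 passed edgeR and 1 was lower at an unadjusted p under 0.05, while DESeq2 called that one, Mpeg1, and limma-voom 0. Their summed level was 605 to 775 CPM in sufficient-iron livers, 436 to 603 CPM in high-iron livers and 255 to 561 CPM in low-iron livers, and no member had 0 reads over the 9 libraries. Mpeg1, a pore-forming macrophage protein, was at 95.4, 109 and 130.3 CPM against 57.8, 57.5 and 76.1 CPM (-0.81 ± 0.20, edgeR adjusted p = 0.186), and Marco, a scavenger receptor, at 15.4, 6.44 and 9.82 CPM against 2.64, 3.71 and 8.71 CPM. The part of these cells in the interferon values was not tested.

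Markers of monocytes and neutrophils (9 tested, median -0.583) and of lymphocytes (14 tested, median -0.198) gave 0 calls in edgeR, DESeq2 or limma-voom, with 1 member lower at an unadjusted p under 0.05 in each list. Ptprc, the pan-leukocyte surface protein CD45, was at 12.8, 17.8 and 11.1 CPM against 6.79, 6.83 and 11 CPM (-0.78 ± 0.33, edgeR adjusted p = 0.52). High-iron library 12 lay close to the sufficient-iron range for it. The lymphocyte median was 0.0339 without sufficient-iron library 10. The monocyte and neutrophil median was -0.346 without sufficient-iron library 6 and -0.943 without high-iron library 12.

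**Figure D5:**
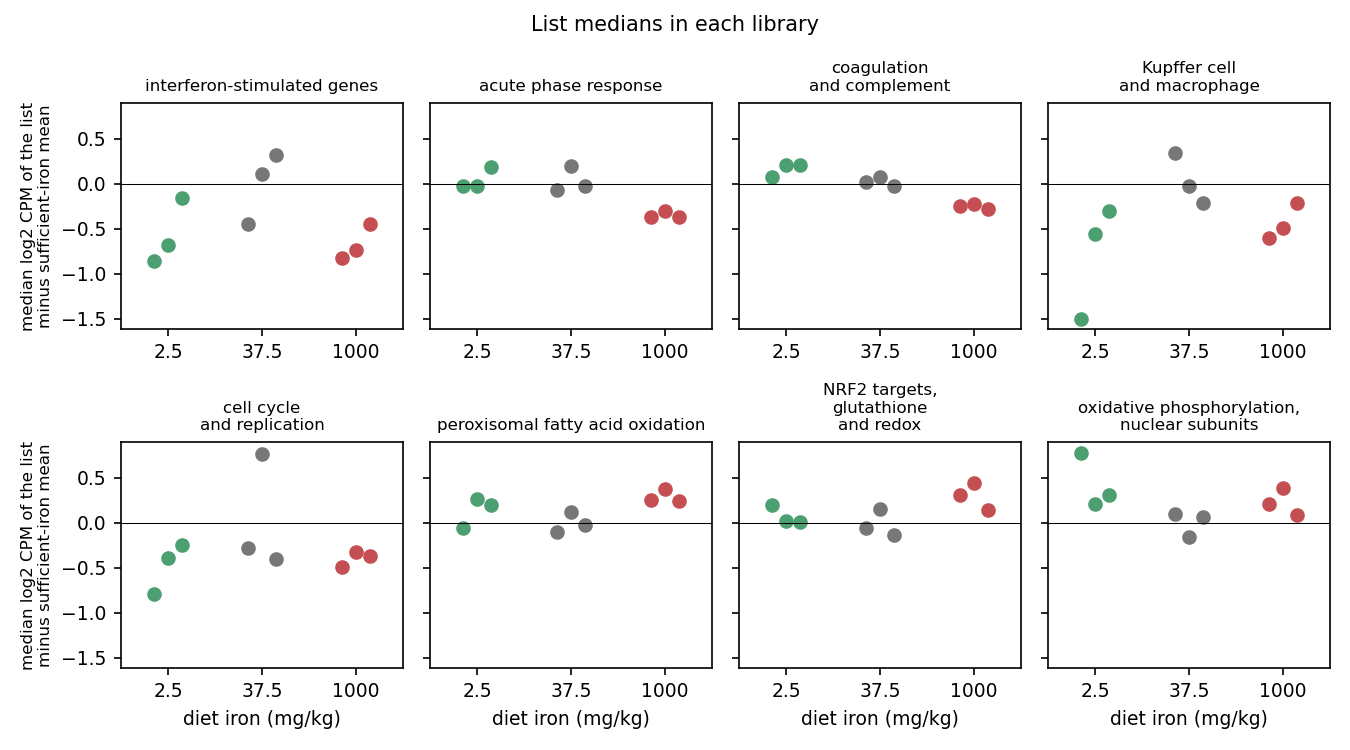
Median log2 CPM of the tested genes of 8 lists in each library, relative to the mean of the sufficient-iron libraries (y axis), by iron content of the diet (x axis, mg/kg), with 1 point per library. The high-iron points of coagulation and complement and of the acute phase lie below all other points, whereas those of interferon-stimulated genes and Kupffer cell markers overlap the low-iron points.

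Coagulation, complement and acute phase genes, which encode plasma proteins, lay mostly lower in high-iron livers, and C8a, a chain of the complement membrane attack complex, fell. C8a stood at 376, 414 and 387 CPM in sufficient-iron livers, 265, 232 and 213 CPM in high-iron livers and 338, 355 and 396 CPM in low-iron livers. Its fall was 0.73 ± 0.12 (edgeR adjusted p = 0.0479), and the high-iron livers were the lowest. Of 32 tested coagulation and complement genes 1 fell, 11 were lower and 0 higher at an unadjusted p under 0.05, and 29 had negative values with a median of -0.245. The diets did not overlap in 16, all lower in high iron, against 8.85% of all tested genes on the lower side.

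Other members of the terminal complement pathway lay lower without passing edgeR. C9 was at 234, 205 and 214 CPM against 135, 95.3 and 97.6 CPM (-1.0 ± 0.23, edgeR adjusted p = 0.163). Hc, which encodes C5, had a value of -0.61 (edgeR adjusted p = 0.134) and C4b one of -0.45 (0.205), and DESeq2 called all 3 with C8a. By library the list median was -0.25, -0.23 and -0.279 in high iron, against -0.0228 to 0.0689 in sufficient iron and 0.0718 to 0.206 in low iron.

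Acute phase genes showed a median of -0.38 over 32 tested members, 28 of them negative. Of these, 0 passed edgeR or limma-voom, 1 was higher and 15 lower at an unadjusted p under 0.05, and DESeq2 called 6, all lower. Itih4, a plasma protease inhibitor family member, was at 755, 886 and 654 CPM against 355, 373 and 418 CPM without overlap (-1.0 ± 0.17, edgeR adjusted p = 0.0535). Stat3, the transcription factor that carries the interleukin 6 signal, was at 79.9, 81.9 and 85.9 CPM against 59.4, 61.5 and 67 CPM (-0.4 ± 0.09, edgeR adjusted p = 0.17), and Serpina3m had a value of -0.5 (0.173). The list median in high-iron livers was -0.376, -0.301 and -0.37, below the other 6 livers, the lowest of which was at -0.0707.

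Among abundant liver transcripts, Apob, the structural protein of very low density lipoprotein, was at 5732, 6893 and 5073 CPM against 4492, 3672 and 4649 CPM (-0.47 ± 0.16, edgeR adjusted p = 0.418). Bhmt, which remethylates homocysteine, was at 2519, 1622 and 3309 CPM against 1449, 1192 and 1522 CPM (-0.84 ± 0.23, edgeR adjusted p = 0.245). Cyp2e1, an ethanol-oxidising cytochrome, was at 2974, 2069 and 3566 CPM against 3677, 4220.0 and 4222 CPM (0.49 ± 0.20, edgeR adjusted p = 0.517). The diets were separate for all 3 genes, and none passed the test.

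Nnmt, nicotinamide N-methyltransferase, which uses S-adenosylmethionine to methylate vitamin B3, fell. It stood at 36.3, 32.3 and 33.9 CPM in sufficient-iron livers and at 6.02, 4.53 and 9.08 CPM in high-iron livers. The sufficient-iron livers were close together, the low-iron livers, at 29.3, 58.1 and 36.6 CPM, spanned them, and every high-iron liver was far below. The fall was 2.4 ± 0.28 on the log2 scale (edgeR adjusted p = 0.0194). It was the one gene past the test among 20 tested genes of NAD metabolism, whose median was 0.00498.

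Drug-metabolising enzymes included 1 further call. Cyp2c67 stood at 76.3, 77.4 and 73 CPM in sufficient-iron livers and at 43.6, 47 and 49.8 CPM in high-iron livers, a fall of 0.69 ± 0.11 (edgeR adjusted p = 0.0341). Its close relative Cyp2c68 was at 51.2, 65.8 and 44 CPM against 30.0, 30.7 and 29.4 CPM (-0.84 ± 0.14, edgeR adjusted p = 0.054), and reads shared by the pair make each level uncertain. Of 37 tested cytochromes P450 2 were higher and 7 lower at an unadjusted p under 0.05, with Cyp2a5 on the higher side at 1.11 (edgeR adjusted p = 0.154), and the median was -0.0272. Among 27 tested transferases Sult1c2 followed Nnmt, at 5.65, 7.41 and 6.24 CPM against 2.71, 2.67 and 2.78 CPM (-1.24 ± 0.22, edgeR adjusted p = 0.0634).

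The pair with the largest falls among the called genes had low levels. Mmd2, a membrane protein of the progestin and adipoQ receptor family, stood at 4.08, 12.3 and 4.83 CPM in sufficient-iron livers, 0.568, 0.157 and 0.481 CPM in high-iron livers and 5.3, 6.04 and 6.66 CPM in low-iron livers. It fell by 4.17 ± 0.52 (edgeR adjusted p = 0.0194), and by 3.5 without sufficient-iron library 6. Atp2b2, a plasma membrane calcium pump, stood at 8.13, 5.87 and 3.12 CPM, 0.568, 0.409 and 0.908 CPM and 3.43, 3.44 and 2.78 CPM in the same order of diets, and fell by 3.23 ± 0.39 (edgeR adjusted p = 0.0194). It was the one gene past the test among 18 tested genes of calcium handling, 3 of which were lower and 0 higher at an unadjusted p under 0.05, with a median of -0.178.

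Prlr, the prolactin receptor gene, stood at 86.8, 72 and 64.5 CPM in sufficient-iron livers and at 40.2, 33.2 and 30.9 CPM in high-iron livers, a fall of 1.1 ± 0.17 (edgeR adjusted p = 0.0381). Low-iron livers held 79.7, 83.1 and 115 CPM. The growth hormone and prolactin list had 23 tested members with a median of -0.245, which was -0.0668 without sufficient-iron library 2. Igfals, the acid-labile subunit that carries IGF1 in plasma, was at 50.7, 35.1 and 40.0 CPM against 30.4, 27 and 24.3 CPM (-0.62 ± 0.15, edgeR adjusted p = 0.182), and Igf1 had a value of -0.28 (0.54). Both were separate between the diets and higher in every low-iron liver than in any other.

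Krt23, a type I keratin, had the largest rise among the called genes. It stood at 1.97, 1.73 and 1.74 CPM in sufficient-iron livers, 13.3, 20.4 and 16.3 CPM in high-iron livers and 2.26, 7.75 and 3.84 CPM in low-iron livers. The sufficient-iron livers were the lowest and close together, and the low-iron livers lay between the other diets without overlap. The rise was 3.21 ± 0.36 (edgeR adjusted p = 0.0194).

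Other keratin and cholangiocyte genes did not pass the test. Krt23 was the one call among 15 tested members, whose median was 0.0789, and Krt19, a bile duct keratin, was at 0.328, 0.644 and 0.855 CPM against 1.04, 0.755 and 1.01 CPM, with overlap (0.58, edgeR adjusted p = 0.69).

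Peg3, an imprinted zinc finger gene expressed from the paternal copy, stood at 3.28, 4.26 and 3.56 CPM in sufficient-iron livers, 6.96, 10.8 and 9.56 CPM in high-iron livers and 2.18, 2.3 and 1.52 CPM in low-iron livers. The diets were separate in the order of their iron content, and the rise to high iron was 1.29 ± 0.21 (edgeR adjusted p = 0.0479). It was the one call among 15 tested imprinted genes, 11 of which had negative values, with a median of -0.145 that became 0.134 without sufficient-iron library 6. Nlrp12, a NOD-like receptor gene, was at 21.9, 24.5 and 20.0 CPM against 35.9, 39.2 and 38.4 CPM, a rise of 0.77 ± 0.12 (edgeR adjusted p = 0.0341).

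The remaining genes that fell belong to no described list. Slc17a1, an organic anion and phosphate transporter, stood at 9.29, 8.81 and 7.73 CPM against 5.05, 4.47 and 4.38 CPM, a fall of 0.89 ± 0.13 (edgeR adjusted p = 0.0341). Gpc1, a heparan sulfate proteoglycan of the cell surface, stood at 16, 18.4 and 16.2 CPM against 9.13, 8.21 and 9.83 CPM, a fall of 0.9 ± 0.13 (edgeR adjusted p = 0.0341). Sdr9c7, a short-chain dehydrogenase, fell by 1.32 ± 0.20 (edgeR adjusted p = 0.0341), from 55.1, 32.9 and 36.8 CPM to 20.1, 16.2 and 13.4 CPM.

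Stap1, a signalling adaptor, fell by 1.83 ± 0.28 (edgeR adjusted p = 0.0341), from 2.7, 5.04 and 3.45 CPM to 1.04, 0.975 and 1.18 CPM. Pter, a phosphotriesterase-related protein, fell by 0.69 ± 0.11 (edgeR adjusted p = 0.0412), from 80.1, 82.9 and 72.8 CPM to 52.3, 50.4 and 43.7 CPM. The low-iron livers overlapped the sufficient-iron livers in each of these 5 genes. Just short of the threshold on the lower side were Hapln4 (-1.72, edgeR adjusted p = 0.0503) and Tor3a (-1.17, 0.058).

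Clock genes, which time daily rhythms in the liver, gave 0 calls among 18 tested in edgeR, DESeq2 and limma-voom, with 0 higher and 1 lower at an unadjusted p under 0.05. They varied widely between livers of 1 diet. Arntl, which encodes the clock activator BMAL1, was at 14.5, 10.9 and 6.21 CPM in sufficient iron, 9.0, 3.21 and 2.03 CPM in high iron and 15.1, 9.29 and 3.74 CPM in low iron. The diets overlapped, while in each of the 3 sets of consecutive title numbers the high-iron liver was below the sufficient-iron liver. Per3, a clock repressor gene, was at 3.79, 2.97 and 11.1 CPM, 3.68, 13.4 and 22.9 CPM and 3.74, 4.28 and 10.8 CPM in the same order. The diets overlapped here too (edgeR adjusted p = 0.588 for Arntl and 0.624 for Per3).

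Cell cycle genes had a median of -0.52 over 29 tested members, 27 of them negative, and 0 passed edgeR, DESeq2 or limma-voom, with 1 higher and 8 lower at an unadjusted p under 0.05 in edgeR. Mki67, the proliferation marker, was at 2.51, 11.8 and 2.76 CPM against 1.74, 2.55 and 2.67 CPM, and its value of -1.32 (edgeR adjusted p = 0.519) was -0.198 without sufficient-iron library 6. The list median without that library was -0.0422. Stellate cell and matrix genes (21 tested) had a median of -0.257 that became 0.134 without it.

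Some large values did not pass. Wfdc2, a secreted protease inhibitor family member, was at 4.15, 9.78 and 3.95 CPM against 1.4, 0.849 and 0.374 CPM (-2.71 ± 0.49, edgeR adjusted p = 0.0634), with low-iron livers at 8.66, 4.68 and 9.2 CPM. Cntnap1, a neuronal adhesion protein, was at 2.22, 20.3 and 7.45 CPM against 1.34, 1.73 and 1.71 CPM, and its value of -2.66 (edgeR adjusted p = 0.186) was -1.62 without sufficient-iron library 6. Xlr3a, an X-linked gene of a family with near-identical copies, was at 0.875, 0.368 and 1.08 CPM against 1.74, 2.86 and 5.39 CPM (2.1 ± 0.65, edgeR adjusted p = 0.356).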

How the data were processed

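Liver RNA of 9 mice was sequenced, 3 per diet. Per the labels' protocols, RNA was extracted with RNeasy Mini columns and a TruSeq RNA kit from Illumina was used for the libraries. The authors deposited unnormalized counts, 1 table per library of 23420 gene symbols and 5 category entries, which show that reads placed in several positions or in several genes were left out. Builds mm10 and mm9, with no role, and FastQC are listed per the submitters' processing notes. Which aligner and counter were run, and whether strand was used, is not given in the sources used here, so overlapping and antisense genes cannot be told apart. The category entries were dropped from library sizes and tests.

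Tests were run with edgeR 4.0.16 under R 4.3.3. Low counts were removed with filterByExpr, libraries were scaled by TMM, and a robust quasi-likelihood model with diet as its factor was fitted to all 9 libraries, with the F-test of high against sufficient iron. P-values were adjusted by Benjamini-Hochberg over 13020 genes, with 0.05 as the threshold. SE is the size of the fold change over the square root of F. List medians by library use log2 CPM with a prior count of 2. The common biological coefficient of variation was 0.177, and p-values measure the spread between 3 mice per diet. Depth was 21994132 to 33807087 gene reads over the 9 libraries.

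Gene lists (47, of pathways and cell types) and the rule for naming genes were chosen with earlier results of these data known. The rule takes genes past the threshold, the iron panel, up to 4 members of each list with the lowest p, the 5 lowest p just outside the threshold per direction, and the 5 largest differences of mean CPM and of log2 fold change per direction among separate genes at an unadjusted p under 0.05, with a mean of at least 1 CPM for the latter. Some genes that this rule takes are not reported here. Lists are described by counts and medians, with no set test. Promoters come from RefSeq (GRCm38.p6), matched by symbol, and 22 of the 28 called genes had a window. The alternatives were thresholds of 0.01 and 0.10, no filter, at least 1 CPM in 3 or more libraries, scaling by DESeq2 size factors or by the upper quartile, DESeq2 1.42.0, limma-voom (limma 3.58.1), the 6 compared libraries alone, Rn45s and Lars2 left out, each library left out in turn and, added after seeing the data, a block of consecutive title numbers.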

Additional observations from a re-analysis of the deposited data

How the results depend on the processing

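The count of 28 genes, 13 higher and 15 lower, was 0 at a threshold of 0.01 (0 higher and 0 lower) and 66 at 0.10 (28 higher and 38 lower). With no filter it was 45 (26 lower), and DESeq2 called 218 (89 higher and 129 lower), all 28 included. With each library left out in turn the count ran from 0 to 56, with 0 to 29 higher and 0 to 27 lower. It was 0 without high-iron library 4 or 8, 4 without sufficient-iron library 10, 8 without high-iron library 12, 11, 16 and 56 without low-iron libraries 9, 5 and 1, and 13 and 18 without sufficient-iron libraries 6 and 2. The cause was not tested. The filter at 1 CPM gave 28 calls, DESeq2 size factors 29, upper-quartile scaling 28, limma-voom 26, the 6 libraries alone 29 (16 higher and 13 lower, 21 of the 28 among them) and the fit without Rn45s and Lars2 26. The share of higher calls was 46.4% in the main fit and 44.8% and 46.4% under the other scalings, which moved the median of all genes by less than 0.1.

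In each of the fits the 28 genes kept their direction. 6 values near 0 changed sign as libraries were left out in turn, with log2 fold changes from -0.0495 to 0.0627 for Hfe, -0.247 to 0.0153 for Slc40a1, -0.221 to 0.0248 for Hfe2, -0.491 to 0.0339 for Cd79b, -0.069 to 0.399 for Cela1 and -0.0454 to 0.284 for Fabp2. The diets share no replicate number, but the title numbers run in consecutive sets (1 to 4, 5 to 8 and 9 to 12) with 1 library per diet in each. A fit with these sets as a replicate block, chosen after seeing the data, gave 32 calls (15 higher and 17 lower), 20 of the 28 among them and all 28 in the same direction. Alas2 (adjusted p = 0.0604), C8a (0.0954), Prlr (0.0611), Cyp2c67 (0.058), Gpc1 (0.058), Nlrp12 (0.0669), Pter (0.0604) and the gene with a clone name then missed the threshold, and 12 other genes passed it, among them Ifit1 (0.0156), Gstm4 (0.0484) and Mpeg1 (0.0441). Deviations from the diet means correlated at -0.311 to 0.318 across genes in the 9 pairs of libraries of 1 set. In pairs from different sets they correlated at -0.297 to 0.333. These values show no pairing over all genes together and cannot exclude one for part of the genes. Arntl fell from the first set to the second and from the second to the third in each of the 3 diets. With 3 mice per diet and single libraries able to end every call, a gene that did not pass is not shown to be equal between the diets.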
